A study of Mus musculus with 2 samples.

Results

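Plasmacytoid dendritic cells were taken as the cells in which Siglech was detected together with at least 1 of Ccr9, Cox6a2, Klk1, Pacsin1 and Runx2, and in which Cd3e, Cd79a, C1qa and Cxcr2 were not detected. Detection means at least 1 unique molecular identifier (UMI), the tag that counts each captured RNA molecule once. This rule selected 115 of 11905 cells: 45 of 6203 in the DT library and 70 of 5702 in the PBS library. The members were thus chosen by the measured expression of these 10 genes, and the levels of those genes describe the selection and support no comparison.

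The cells came from lungs of Scgb1a1cre /iDTR mice, in which Cre under the club cell gene Scgb1a1 switches on the diphtheria toxin receptor once tamoxifen is given. Mice of the DT group were injected with diphtheria toxin (600 ng per 20 g, 2 doses, days 8 and 9) to deplete club cells, and the control group received PBS. Mice of both groups carried lung tumours grown from 150000 HKP1 cells, a mouse lung adenocarcinoma line, delivered by tail vein. Both groups also had tamoxifen (2 mg per 20 g, days 3 to 7), 250 µg of anti-PD-1 antibody on day 6, and 4 Gy irradiation on 3 days, 10 to 12. Lungs were taken 24 to 48 h after irradiation, and live CD45-positive cells were sorted and run on the 10x Genomics Chromium 3′ assay. Each group was 1 library made from 4 mice by the study's design, no label ties a cell to a mouse, and the labels give neither the age nor the sex of the mice. Differences between DT and PBS therefore have no replicate check and no test, and all intervals below are 95% intervals for counting error only.

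Plasmacytoid dendritic cells are rare blood-borne cells of the innate immune system that sense viral and self nucleic acids in endosomes through Toll-like receptors and answer with large amounts of type I interferon. Their fate is set by the E protein Tcf4 (E2-2), with Irf8, Spib, Bcl11a and Runx2 acting beside it, and their wide endoplasmic reticulum recalls that of plasma cells. In tumours they are often described as poorly activated, and they present antigen less well than conventional dendritic cells. The type I and type III interferon genes were not analysed here.

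The gated cells were among the deeper cells of the sort, with a median of 6412 UMIs in DT and 7510 in PBS, against 2888 in the other DT cells and 3684.5 in the other PBS cells. Summed over the gate this gave 308528 UMIs in DT and 513071 in PBS, which sets the precision of every level below. The libraries shared 8 cell barcodes, 0 of them among the gated cells, and 0 gated cells were called doublets by Scrublet, which called 0 DT and 3 PBS cells in all, too few for the caller to have worked. Scgb1a1 UMIs, free RNA of the cells that the toxin targets, were seen in 0 of 45 gated DT cells, which allows a share of up to 6.67%, and in 10 of 70 gated PBS cells (14.3%). The T cell, B cell and neutrophil gates, which lack the gene, gave 0.098%, 0.187% and 0.179% in DT against 16.6%, 13.1% and 15.3% in PBS, and the part of this free RNA in the results below was not tested.

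Siglech, a sialic acid-binding lectin of plasmacytoid dendritic cells that signals through an ITAM adaptor, was detected in 56 DT cells and 92 PBS cells before the other conditions were applied. Of these, 50 DT cells and 83 PBS cells had at least 1 of the 5 secondary genes, and the excluded genes then removed 5 DT cells and 13 PBS cells. Just outside the rule lay 6 DT cells and 9 PBS cells with Siglech and no secondary gene, whose median was 1 Siglech UMI in both libraries, at median depths of 12793.5 UMIs in DT and 15625 in PBS. Just inside it lay 8 DT cells and 10 PBS cells with a single Siglech UMI, while 27 DT cells and 39 PBS cells had at least 10. Among the cells that the excluded genes removed, 2 in DT and 9 in PBS belonged to the same cluster as most gated cells. Over all removed cells the median was 12 Siglech UMIs in DT and 15 in PBS.

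Clustering of both libraries together split the gated cells into a main set and a small one. The leading cluster held 28 of 45 DT gated cells (62.2%, 46.5 to 76.2%) and 57 of 70 PBS gated cells (81.4%, 70.3 to 89.7%), with medians of 17 Siglech UMIs per cell in DT and 13 in PBS. A second cluster held 11 DT and 10 PBS gated cells, with medians of 1 and 2 Siglech UMIs, and the other 6 DT and 3 PBS cells lay elsewhere or failed the cell filter. Per cell, Siglech in the leading cluster had a median of 2627 CPM, the UMIs of a gene scaled to the same total in every cell or sum of cells, in DT, from 348 to 4777, against 1689 CPM in PBS, from 340 to 3348. The libraries overlapped up to the highest PBS cell, and the second cluster was mostly lower, with medians of 194 CPM in DT and 211 CPM in PBS.

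**Figure D1:**
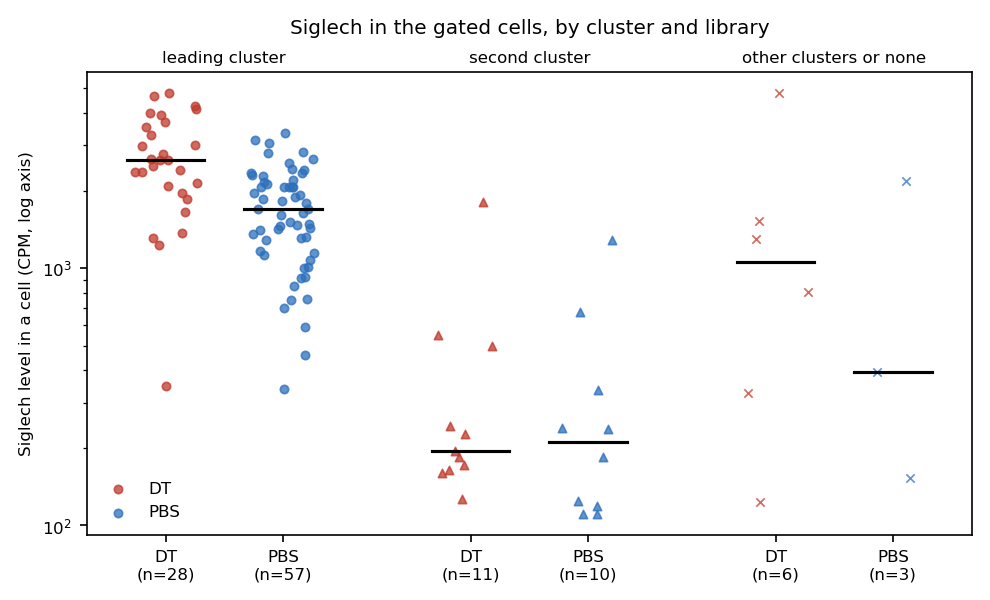
Siglech level of each gated cell in CPM on a log axis, with DT (red) left of PBS (blue) in each of 3 sets: leading cluster (circles), second cluster (triangles) and other clusters or none (crosses). Black lines are medians: 2627 CPM in DT and 1689 CPM in PBS in the leading cluster, against 194 and 211 CPM in the second cluster.

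The second set shared part of the plasmacytoid programme. Bst2, the tetherin that holds budding virus at the cell surface and the antigen of a standard plasmacytoid antibody, had 2105 CPM there against 3389 CPM in the leading cluster, and Bcl11a, a zinc finger factor of lymphoid and plasmacytoid fate, had 571 against 696 CPM. Other defining genes were nearly missing: Ly6d, a surface protein of lymphoid progenitors, B cells and plasmacytoid cells, had 257 against 3941 CPM, Ctsl, an endosomal protease, had 141 against 1734 CPM, and Dntt, the polymerase that adds bases to rearranging receptors, had 0 UMIs, against 73 in the leading cluster. Instead the second set was high in Klf4, a factor of the myeloid and conventional dendritic lineages (462 against 8.21 CPM), the calcium-binding S100a4 (699.5 against 27.9 CPM), the filament gene Vim (4646 against 498 CPM), the galectin Lgals3 (2843 against 263 CPM) and Cd209a, a lectin of type 2 conventional dendritic cells (424 against 57.5 CPM). The remaining cells of that cluster, which the rule did not select, were like the second set in Cd209a, at 311 CPM, and higher in S100a4, at 1132 CPM. They were far from it in Klf4, at 65.7 CPM, in Bcl11a, at 93.8 CPM, and in H2-Aa, a class II chain, at 6933 CPM against 546 CPM in the second set. By these markers the plasmacytoid label held for the leading cluster. The 21 cells of the second set passed the rule on few Siglech UMIs and went against the label in Ly6d, Klf4 and Cd209a, so comparisons below are also given for the leading cluster alone. These clusters were built from the same expression values, so the differences describe the sets and were given no test.

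The 6 genes that the rule required had the following levels, whose distance from the other cells is fixed by the selection. Siglech had 1731 CPM in gated DT cells and 1446 CPM in gated PBS cells, against 1.85 and 5.10 CPM in the other cells of each library. Ccr9, the receptor for the gut and thymus chemokine Ccl25, had 768 and 906 CPM against 6.45 and 8.60 CPM. Cox6a2, a cytochrome c oxidase subunit otherwise typical of muscle, had 797 and 1064 CPM, and Klk1, tissue kallikrein, 651 and 967 CPM, against 0.589 to 4.35 CPM in the other cells of either library. Pacsin1, an adaptor of membrane curvature and endocytosis, and Runx2, the factor that plasmacytoid cells need to leave the bone marrow, were less exclusive: Runx2 was seen in 9.86% of the other DT cells and 10.8% of the other PBS cells. Of the markers that the rule did not use, Bst2 had 2674 CPM in gated DT cells and 3212 CPM in gated PBS cells against 232 and 225 CPM in other cells. Ly6d was shared with B cells alone among the 7 comparison gates, at 2018 CPM in the B cell gate and at most 3.65 CPM in the other 6.

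The 15 leading genes, ranked by the smaller of the 2 libraries' ratios among genes outside the rule, included transcription factors, enzymes, receptors and transcripts with no function given here. D13Ertd608e led, with UMIs in 66.7% of gated DT cells and 72.9% of gated PBS cells against 0.114% and 0.320% of other cells. It was followed by the small membrane protein gene Smim5, the unannotated Gm34680, and Upb1, the last enzyme of pyrimidine breakdown, which was seen in 80.0% of gated DT cells and 81.4% of gated PBS cells. The remainder were Cd300c, an immunoglobulin-like receptor, Eldr, Paqr5, a membrane progestin receptor, Tcf4, Lefty1, a secreted Nodal inhibitor, Rnase6, a secreted ribonuclease, Klk1b27, Atp1b1, a sodium pump subunit, Cd209d, Lifr, the leukaemia inhibitory factor receptor, and Irf8. Their log2 ratios to the other cells lay between 3.58 and 5.45. Klk1 and Klk1b27, like Cd209a and Cd209d, belong to families of near-identical copies, so reads may have been split or lost between them. Across all genes compared, 408 of 7030 were at least 2-fold higher in gated cells in both libraries (5.8%) and 660 were at least 2-fold lower (9.39%). Of the list of plasmacytoid identity genes, 37 of 39 were at least 2-fold higher, with median log2 ratios of 2.98 in DT and 3.17 in PBS against 0.02 and 0.04 over all genes, as a list chosen for these cells would give.

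Promoters of 4 such genes are shown because they carry the letters that E proteins such as Tcf4 and interferon regulatory factors such as Irf8 are known to recognise. The sequences are 250 bases before to 50 bases after the start of the gene, from RefSeq on GRCm38.p6, 5′ to 3′ on the strand of the gene, with matches in capitals to CACCTG (read as CAGGTG on the opposite strand) or, as the interferon regulatory factor motif, to GAAA, any 2 bases and GAAA. Siglech lies on the plus strand at chr7:55767934-55768233, Ccr9 on the plus strand at chr9:123766961-123767260, Klk1 on the plus strand at chr7:44225110-44225409 and Bst2 on the minus strand at chr8:71537423-71537722.
Siglech: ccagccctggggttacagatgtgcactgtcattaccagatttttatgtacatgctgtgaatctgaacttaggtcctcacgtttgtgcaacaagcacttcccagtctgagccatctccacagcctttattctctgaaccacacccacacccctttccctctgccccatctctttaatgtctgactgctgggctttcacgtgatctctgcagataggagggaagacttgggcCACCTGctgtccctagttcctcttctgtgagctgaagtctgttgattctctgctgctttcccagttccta
Ccr9: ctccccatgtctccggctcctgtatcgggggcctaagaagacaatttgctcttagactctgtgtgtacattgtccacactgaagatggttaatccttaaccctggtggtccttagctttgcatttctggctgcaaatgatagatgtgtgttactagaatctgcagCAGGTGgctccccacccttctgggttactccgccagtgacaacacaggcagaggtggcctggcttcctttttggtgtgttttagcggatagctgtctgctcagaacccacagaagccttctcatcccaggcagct
Klk1: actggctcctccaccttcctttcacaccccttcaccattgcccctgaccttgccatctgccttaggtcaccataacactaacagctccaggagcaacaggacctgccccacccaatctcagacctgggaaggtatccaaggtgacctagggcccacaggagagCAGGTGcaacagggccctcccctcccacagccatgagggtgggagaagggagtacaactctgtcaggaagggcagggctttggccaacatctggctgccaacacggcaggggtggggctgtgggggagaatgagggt
Bst2: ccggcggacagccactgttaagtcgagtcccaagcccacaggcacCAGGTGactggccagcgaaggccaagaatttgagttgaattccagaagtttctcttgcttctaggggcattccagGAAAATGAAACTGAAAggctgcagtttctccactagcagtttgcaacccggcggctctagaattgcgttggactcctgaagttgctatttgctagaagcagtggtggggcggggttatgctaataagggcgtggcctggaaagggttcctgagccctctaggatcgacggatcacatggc
Each of the 4 windows holds CACCTG 1 time on either strand, and the Bst2 window also holds 2 overlapping matches to the interferon regulatory factor motif, both merged in 1 run of capitals. Of the 23 gate, marker and leading genes, 16 matched a gene of the promoter table, and 9 of these had CACCTG in a promoter, against 22.6% of all 27025 genes in the table, while 3 of 16 had the interferon regulatory factor motif, against 3.99% of genes. A match is a run of letters in a window of 300 bases and is no evidence of binding.

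Transcription factors of the lineage were high in the gated cells of both libraries. Tcf4 had 1413 CPM in gated DT cells and 1458 CPM in gated PBS cells, against 67.1 and 71.2 CPM in the other cells. Irf8 had 2992 and 3253 CPM, and Bcl11a 619 and 659 CPM, the gated cells standing well above the rest each time. Among the other gates Irf8 was next highest in type 1 conventional dendritic cells, at 1368 CPM, whose fate it also sets. Of 13 such factors with enough UMIs, 8 were at least 2-fold higher than in other cells in both libraries, and Ets1, a factor of T cells, was at least 2-fold lower.

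**Figure D2:**
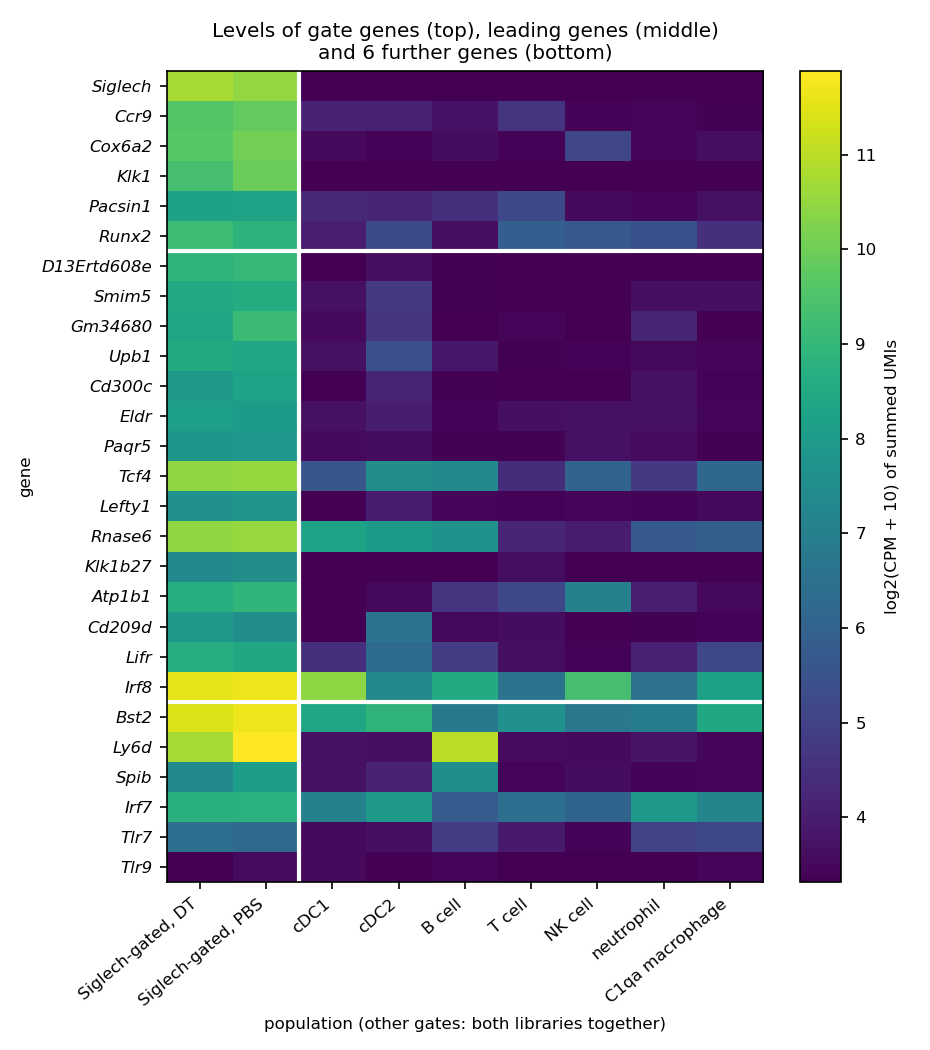
Levels of the 6 genes that the rule required (top), the 15 leading genes (middle) and 6 further genes (bottom), as log2(CPM + 10) of summed UMIs, in gated DT cells, gated PBS cells and 7 gates of other cells with both libraries together. Both gated columns are high throughout except for Tlr9, which had 0 UMIs in DT and 1 in PBS, while Ly6d is also high in the B cell gate and Irf8 in the type 1 conventional dendritic cell gate.

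Genes of endosomal sensing were detected in the gated cells, Tlr9 aside. Tlr7, the receptor for single-stranded RNA, had 77.8 CPM in gated DT cells and 68.2 CPM in gated PBS cells against 17.1 and 19.1 CPM in other cells, whereas Tlr9, the receptor for CpG DNA, had 0 UMIs in DT, which allows up to 9.72 CPM, and 1 UMI in PBS. Unc93b1, which carries these receptors to endosomes, had 749 and 649 CPM, and Slc15a4, an endolysosomal transporter needed for their signalling, had 123 and 129 CPM. Pld4, an endolysosomal nuclease that degrades their ligands, had 979 and 1130 CPM, and Irf7, the factor that turns on interferon genes, had 421 and 437 CPM. All of these but Tlr9, which had too few UMIs to be compared, were at least 2-fold above the other cells in both libraries. They were among 7 such genes of 23 in the sensing list, none of which was at least 2-fold below. Tlr9 also had 0 UMIs in the other DT cells and 34 in the other PBS cells, so its level could not be read in any population.

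Secretory and receptor genes followed the same division. Of 32 genes of the endoplasmic reticulum and secretion, 11 were at least 2-fold higher than in other cells and 0 lower, against 5.8% and 9.39% of all genes compared, with median log2 ratios of 1.03 in DT and 0.84 in PBS. The folding chaperone Hsp90b1, which Toll-like receptors need, reached 1086 CPM in gated DT cells and 1062 CPM in gated PBS cells against 362 and 445 CPM. Csf2rb2, a beta chain of the interleukin 3 receptor, had 506 and 353 CPM against 44.1 and 32.8 CPM, and Flt3, the receptor of a growth factor for dendritic cells, had 159 and 138 CPM against 11.8 and 9.39 CPM. Immediate early and MHC class II genes stood on the other side. Of 19 immediate early genes 15 were at least 2-fold lower than in other cells and 0 higher, and of 12 genes of MHC class II presentation 6 were lower and 0 higher, against 9.39% lower and 5.8% higher over all genes compared. The 5 lowest genes overall were the neutrophil genes S100a9 and S100a8, the T cell genes Cd3g and Cd3d, and the chemokine Ccl6. Because the rule removed cells with Cd3e or Cxcr2, low T cell and neutrophil genes follow in part from the selection.

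Gated cells made up a smaller share of the DT library. They were 0.725% of DT cells (0.530 to 0.970%) and 1.23% of PBS cells (0.958 to 1.55%), a ratio of 0.591 (0.397 to 0.872). The ratio was 0.452 (0.277 to 0.722) for gated cells of the leading cluster, with 28 cells in DT and 57 in PBS, and 1.01 (0.390 to 2.66) for those of the second cluster. Over 11 other definitions of the cells, filters and denominators the ratio lay between 0.429 and 0.726, and it was 0.341 in male-called cells. In the same libraries the type 1 and type 2 conventional dendritic cell gates had ratios of 1.06 (0.550 to 2.08) and 1.23 (0.867 to 1.75), B cells 0.711 (0.656 to 0.770) and C1qa-positive macrophages 1.35 (1.17 to 1.57). Shares within a sort depend on every other cell type, and the spread between mice is unknown.

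**Figure D3:**
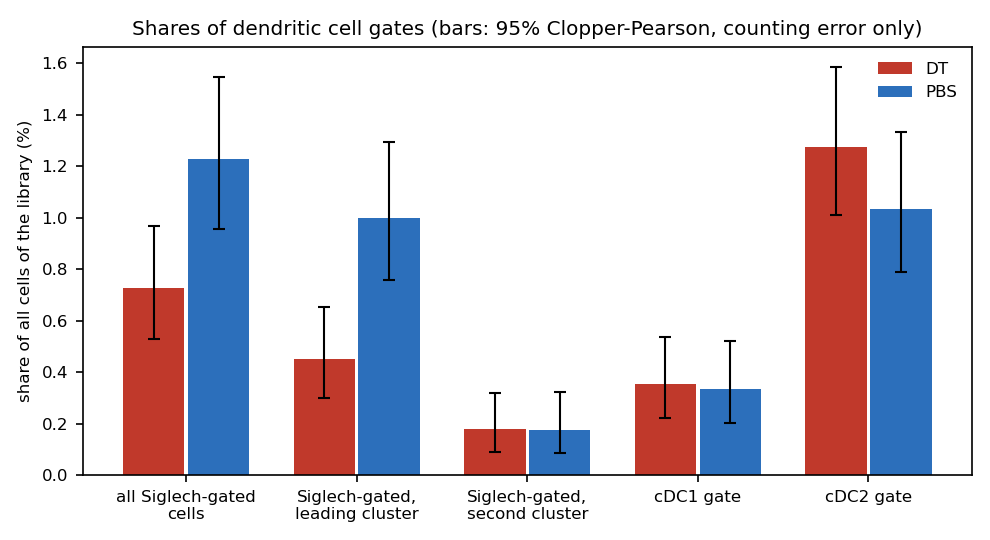
Share of all cells of a library (%) for all gated cells, gated cells of the leading and of the second cluster, and the conventional dendritic cell gates, in DT (red) and PBS (blue), with exact 95% Clopper-Pearson intervals for counting error. The bars differ most for the leading cluster, at 0.451% in DT and 1.00% in PBS, and hardly for the second cluster, at 0.177% and 0.175%.

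The sexes of the mice differed between the libraries, which touches every comparison of DT with PBS. Cells with UMIs of Ddx3y, Eif2s3y, Kdm5d or Uty and none of Xist were called male, and the reverse female. Among gated cells this gave 5 male and 27 female in DT against 40 male and 7 female in PBS, or 15.6% male of those called (5.28 to 32.8%) against 85.1% (71.7 to 93.8%). The other cells were 32.1% male in DT and 87.2% male in PBS. Within male-called cells the share of gated cells had a ratio of 0.341 (0.105 to 0.864), from 5 of 907 DT cells and 40 of 2475 PBS cells. Within female-called cells it was 0.726 (0.309 to 1.98), from 27 of 1933 DT cells and 7 of 364 PBS cells. Both ratios are below 1, and the second interval includes 1.

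Expression within the gate was compared from summed UMIs, as log2 ratios of DT over PBS with 10 CPM added to each side. Of 3425 genes with at least 40 UMIs in at least 15 gated cells, 171 were at least 1.5-fold higher in DT (4.99%) and 169 at least 1.5-fold lower (4.93%), around a median of -0.01. With trimmed-mean scaling that split was 135 higher and 230 lower. In the leading cluster 140 of 2666 genes were higher (5.25%) and 189 lower (7.09%). Counting error alone is wide here: for genes with 40 to 50 UMIs, the upper bound of the ratio was 3.81 times its lower bound in the median.

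Identity genes differed little between DT and PBS, with Ly6d as the exception. Of 39 plasmacytoid identity genes 18 were higher and 21 lower in DT, the median was -0.07, and Ly6d alone passed 1.5-fold, in either direction. Within the leading cluster 26 of 37 were higher with a median of 0.19. Ly6d had 1731 CPM in gated DT cells and 3760 CPM in gated PBS cells, a log2 ratio of -1.11 (ratio 0.460, 0.417 to 0.507), and was seen in 55.6% of DT cells and 82.9% of PBS cells. After each cell was thinned to 2000 UMIs, which left out 3 DT and 6 PBS cells, the shares were 52.2% and 81.4%. Second-cluster cells had 24.7 CPM of Ly6d in DT, from 2 UMIs, and 508 CPM in PBS, from 38 UMIs of which 1 cell held 55.3%. In the leading cluster the levels were 2848 CPM in DT and 4419 CPM in PBS (ratio 0.645, 0.584 to 0.710), with cells from 0 to 9651 CPM in DT and from 0 to 19106 CPM in PBS, so the libraries overlapped. Among leading-cluster cells the ratio was 1.21 (1.01 to 1.45) in male-called cells, 4 in DT and 36 in PBS. In female-called cells, 21 in DT and 7 in PBS, it was 0.480 (0.409 to 0.563). Single cells weighed on both ratios, also over all gated cells. One cell held 38.7% of the male-called DT UMIs and 1 cell held 48.3% of the female-called PBS UMIs, which the intervals do not reflect. Within B cells, the other population with the gene, the ratio was 0.909, and in the T cell gate, which lacks it, the levels were 0.920 CPM in DT and 2.84 CPM in PBS. Over all gated cells it was 0.935 (0.781 to 1.11) in male-called cells, 5 in DT and 40 in PBS, and 0.359 (0.307 to 0.422) in female-called cells, 27 in DT and 7 in PBS.

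Among the lineage factors, Spib, an Ets factor of plasmacytoid and B cells, had 156 CPM in DT and 259 CPM in PBS (log2 ratio -0.70), and Runx1, a factor of blood cell development, had 263 CPM in DT and 144 CPM in PBS (0.82). They were the lowest and the highest of the 13 measured factors, 4 higher and 9 lower in DT with a median of -0.08. Within the leading cluster Spib came to -0.32 and Runx1 to 0.78. The sensing genes were balanced, with 9 of 17 higher and a median of 0.00, between Irak1, a kinase of Toll-like receptor signalling, at -0.72 and the endosomal protease Lgmn at 0.73. Secretory genes were balanced too, with 19 of 31 higher, a median of 0.08 and none past 1.5-fold in either direction.

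Of 20 measured cytokine receptors and their kinases, 14 were higher in DT, against 1641 of all 3425 genes, with a median of 0.19 in all gated cells and 0.26 in the leading cluster. Past 1.5-fold were 3 higher and 0 lower, against 4.99% and 4.93% of all genes. The interferon receptor chain Ifnar1 had 246 CPM in DT and 148 CPM in PBS (ratio 1.66, 1.19 to 2.32), and the kinases Jak2 and Tyk2, which signal below cytokine receptors, had ratios of 1.63 (1.09 to 2.44) and 1.74 (0.938 to 3.22), the last interval including 1. Ifnar1 was seen in 75.6% of DT cells and 57.1% of PBS cells. Csf2rb2 had 506 CPM in DT and 353 CPM in PBS (ratio 1.43, 1.15 to 1.79). Il21r was lowest, at -0.54.

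**Figure D4:**
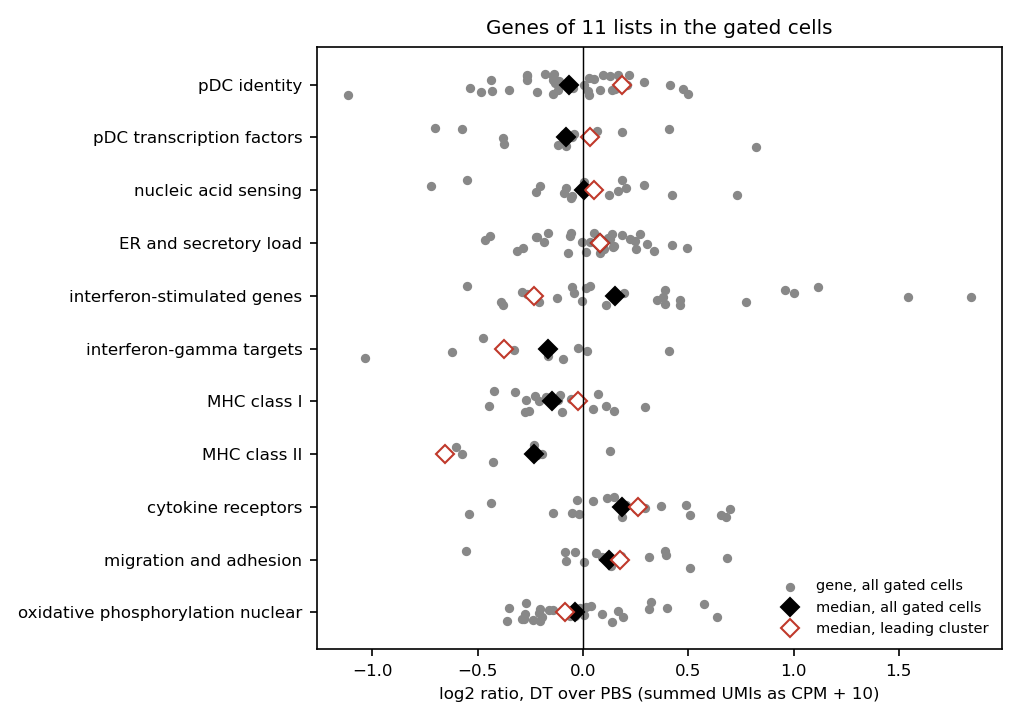
Log2 ratios of DT over PBS in gated cells for the genes of 11 lists without the genes of the rule: grey points are genes in all gated cells, black diamonds their medians and open red diamonds the medians in the leading cluster. The median for MHC class II genes was -0.23 in all gated cells and -0.66 in the leading cluster, and the median for interferon-stimulated genes was 0.15 and -0.23.

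Genes of MHC class II presentation were lower in DT. Of 7 measured, 6 were lower, with a median of -0.23, and H2-Aa, an alpha chain of the class II dimer, passed 1.5-fold with 635 CPM in DT and 971 CPM in PBS (ratio 0.654, 0.552 to 0.774). Cd74, the invariant chain, had 3504 CPM in DT and 5227 CPM in PBS (ratio 0.670, 0.624 to 0.720). The 14 genes of the list summed to 7140 CPM in DT and 9757 CPM in PBS. Of this sum 1 gated cell held 22.2% of the DT UMIs and 1 cell 4.97% of the PBS UMIs, and for H2-Aa 1 cell held 29.1% of the DT UMIs. The per-cell medians of the sum were 3990 CPM in gated DT cells and 7779 CPM in gated PBS cells. Restricted to the leading cluster 7 of 7 were lower with a median of -0.66, and the sums were 5896 CPM in DT and 9232 CPM in PBS (ratio 0.639, 0.597 to 0.683). The same sum was lower in DT in gates that should lack most of these genes. It came to 1831 and 2975 CPM in T cells, DT first, and to 4819 and 7217 CPM in neutrophils. Part of these UMIs came from single cells. In T cells 1 cell held 12.5% of the DT UMIs and 1 cell 7.81% of the PBS UMIs. In neutrophils the shares were 8.38% and 11.3%. Per cell, the medians for DT and PBS were 222 and 267 CPM in T cells and 0 and 252 CPM in neutrophils. The class II sum was near level where the genes are highest, with ratios of 1.06 in B cells and 1.05 in type 2 conventional dendritic cells. Split by sex in the leading cluster, the ratio was 0.880 (0.762 to 1.01) in male-called cells, 4 in DT and 36 in PBS. In female-called cells, 21 in DT and 7 in PBS, it was 0.509 (0.451 to 0.574). The highest cell held 51.2% of the male-called DT UMIs and 7.27% of the male-called PBS UMIs. Among female-called cells the highest cell held 18.9% in DT and 34.97% in PBS. The intervals do not reflect these shares. The part of free RNA and of sex in the lower class II sum was not tested.

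**Figure D5:**
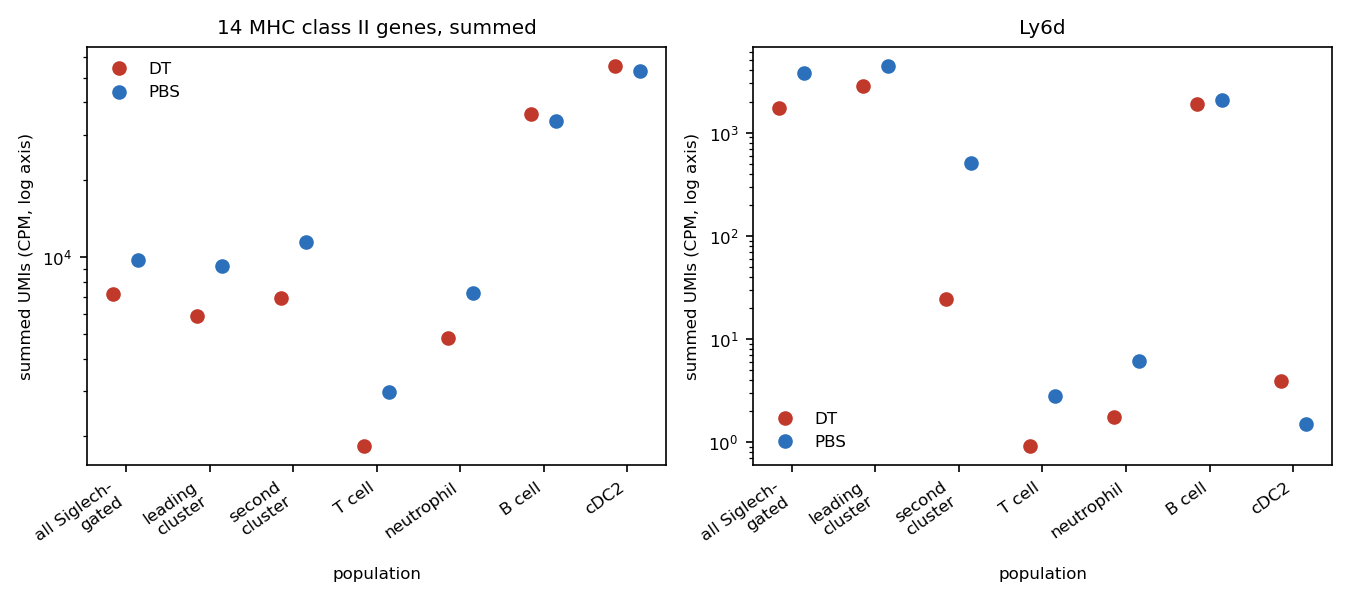
Summed level in CPM on a log axis of 14 MHC class II genes (left) and of Ly6d (right) in gated cells, their 2 clusters and 4 other gates, with DT (red) left of PBS (blue). The class II sum was lower in DT in the gated cells and also in the T cell and neutrophil gates, whereas Ly6d was near the floor in both of those.

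Interferon-responsive genes had no single direction. Of 26 interferon-stimulated genes measured, 16 were higher in DT with a median of 0.15, and 6 passed 1.5-fold upward and 0 downward, against 4.99% and 4.93% of all genes. Among leading-cluster cells 3 of 16 were higher with a median of -0.23. Isg15, a ubiquitin-like modifier, had 327 CPM in DT and 187 CPM in PBS over all gated cells, a log2 ratio of 0.78, but -0.22 in the leading cluster. The antiviral GTPase Mx1 likewise had 1.00 over all gated cells and -0.05 in the leading cluster. Zbp1, a sensor of Z-form nucleic acid, was higher in both, with 1.12 and 0.82. Targets of interferon gamma were lower in 7 of 9, with a median of -0.17 in all gated cells and -0.37 in the leading cluster, and the GTPase Igtp was lowest, at 45.4 CPM in DT and 103 CPM in PBS. Among female-called cells Igtp had 8 UMIs in 27 DT cells and 0 UMIs in 7 PBS cells, too few to give a direction. MHC class I genes had a median of -0.15, with 13 of 18 lower and 0 past 1.5-fold in either direction.

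The 10 highest genes in DT were Apoe (log2 ratio 3.90), Lyz2 (2.69), Xist (2.24), Ctsd (2.14), Ifi205 (2.08), AA467197 (2.03), Ifit2 (1.84), Ifi211 (1.59), Dusp1 (1.59) and Ifi204 (1.54). Single cells weighed on most of these values: in 9 of 10, 1 cell held more than 30% of the DT UMIs. When the highest cell of each gene was left out of each library, 9 of 10 were still at least 1.5-fold higher in DT, Apoe at 1.79 and Lyz2 at 3.35, while Ctsd came to 0.23. For Lyz2 this left out the PBS cell that held 73.8% of the PBS UMIs, while another DT cell with 82 Lyz2 UMIs stayed in. Leaving out 1 cell per library therefore cannot show that a value is free of the weight of a few cells. One DT cell of 9209 UMIs, with 3 Siglech UMIs and in neither cluster, held 85.7% of the DT UMIs of Apoe, the lipid carrier of macrophages, and 77.5% of those of Ctsd, a lysosomal protease. In the leading cluster only 4 of the 10 genes were at least 1.5-fold higher in DT: Xist, Apoe, Dusp1 and Ifit2. Ifit2 had 5 UMIs there in DT and 6 in PBS, with an interval of the ratio (0.460 to 7.49) that includes 1. For Dusp1, 1 cell held 81.0% of the DT UMIs of that cluster. There Ctsd came to 0.15, AA467197 to 0.33 and Ifit2 to 0.61. Lyz2, the lysozyme of myeloid cells, came to -2.16 in that cluster and Apoe to 1.52. The nucleic acid sensors Ifi205, Ifi211 and Ifi204, which are close copies of each other, came to -1.22, -0.97 and -0.37 in the leading cluster. They had 1, 2 and 4 UMIs there in DT against 11, 13 and 13 in PBS. Their intervals of the ratio (0.00483 to 1.43, 0.0385 to 1.55 and 0.167 to 2.28) include 1, so these values give no direction. Xist, which coats and silences the inactive X, had 94 UMIs in DT and 29 in PBS and follows the sexes given above. The 19 macrophage and monocyte markers summed to 2275 CPM in gated DT cells and 372 CPM in gated PBS cells, with 6 and 8 of them at 0, but to 167 and 323 CPM in the leading cluster. Of the leading-cluster sums, Lyz2 made up 32.4 CPM in DT and 179 CPM in PBS. The part of the cells that carry these markers in the higher genes was not tested beyond that split.

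The 10 lowest genes in DT were Cd8b1 (-2.36), Ddx3y (-2.12), Snw1 (-1.58), Ubald1 (-1.47), Ccl4 (-1.45), Bcl10 (-1.44), Pdzd8 (-1.29), Calhm2 (-1.29), Gm4258 (-1.22) and Pnrc2 (-1.22). All 10 were at least 1.5-fold lower in the leading cluster, which holds most of the same cells, and when the highest cell of each gene was left out of each library. The leading-cluster intervals of the ratio include 1 for Pdzd8 (0.181 to 1.11), Gm4258 (0.198 to 1.24) and Pnrc2 (0.0961 to 1.11). In 2 of the 10 genes 1 cell held more than 30% of the DT UMIs. For Ccl4, an inflammatory chemokine, 61.1% of the PBS UMIs and 52.6% of the DT UMIs came from 1 cell each. Split by sex its ratio was 1.11 (0.511 to 2.15) in male-called cells, where 1 of 5 DT cells held all 10 UMIs, and in female-called cells there were 8 UMIs in DT and 1 in PBS. Cd8b1, the beta chain of the CD8 coreceptor, had 22.7 CPM in DT and 158 CPM in PBS, with UMIs in 5 of 45 DT cells and 21 of 70 PBS cells. Split by sex, the Cd8b1 ratio was 0.301 (0.0355 to 1.14) in male-called cells and 0.502 (0.0720 to 5.55) in female-called cells. Both intervals include 1, from 2 and 4 DT UMIs. Its partner Cd8a, which mouse plasmacytoid cells can carry without being T cells, had 169 and 240 CPM overall and was level in the leading cluster, at 264 and 269 CPM. The T cell markers in the gated cells summed to 64.8 CPM in DT and 52.6 CPM in PBS, against 1893 and 1936 CPM in other cells, with 1 of 11 markers at 0 in DT and 3 of 11 in PBS. The rule removed cells with Cd3e, so a low sum was set in part by the selection and does not show where the Cd8b1 UMIs came from. Ddx3y is Y-linked and follows the sexes.

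Bcl10, an adaptor that links antigen and C-type lectin receptors to NF-kB, had 32.4 CPM in DT and 105 CPM in PBS (ratio 0.308, 0.140 to 0.611), with UMIs in 20.0% of DT cells and 54.3% of PBS cells. Nfkbia, the inhibitor of NF-kB and one of its first targets, had 90.8 CPM in DT and 216 CPM in PBS (ratio 0.419, 0.267 to 0.640), and a log2 ratio of -1.22 in the leading cluster. Split by sex, the Nfkbia ratio was 0.513 (0.162 to 1.25) in male-called cells and 0.603 (0.198 to 2.18) in female-called cells, and both intervals include 1. After gated cells were thinned to 1000 UMIs, which leaves far fewer UMIs, the log2 ratio was 0.08 for Nfkbia and 1.21 for Gm4258. The 6 measured NF-kB genes had no common direction, with 3 higher and 3 lower, the 3 lower ones past 1.5-fold and 0 of the higher ones, and a median of -0.32 in all gated cells but 0.29 in the leading cluster. Snw1, a splicing and transcription cofactor, was seen in 11.1% of DT cells and 41.4% of PBS cells. Pdzd8, which tethers the endoplasmic reticulum to mitochondria, and Pnrc2, a factor of mRNA decay, had 22.7 CPM each in DT against 70.2 and 66.3 CPM in PBS. In the other cells of the libraries Bcl10, Snw1, Pdzd8 and Pnrc2 had log2 ratios of -0.14, -0.14, 0.02 and -0.17. These genes had 34 to 54 UMIs in PBS and 5 to 10 in DT, so their intervals span at least 4-fold.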

How the data were processed

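The authors deposited, per library, a table of log2 values per cell and gene, and each cell's values, turned back from log2(CPM + 1), summed to 1 constant total, as CPM do. Per the submitters' processing notes, Partek, STAR, Seurat and the mm10 build were used; the notes give no versions or settings. Dividing each cell's CPM by the value of its smallest step gave whole UMIs within 1% for 100% of values, and these recovered UMIs were summed over gated cells. The DT library held 6203 cells and 27896059 UMIs and the PBS library 5702 cells and 31089434 UMIs, over 16184 genes. With 1 library per group, no count model was fitted and no p-value was computed.

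Log2 ratios used summed CPM with 10 CPM added, for genes with at least 40 UMIs in at least 15 gated cells; this understates the change of low genes. Comparison with other cells used genes with at least 40 UMIs in gated cells or 1000 UMIs in other cells. Intervals are 95% exact binomial (Clopper-Pearson for shares, conditional for ratios), and the limit for a count of 0 is 3 counts. Clusters came from Scanpy 1.11.5 on both libraries together (cells with at least 200 genes, 500 UMIs and at most 10% mitochondrial UMIs; 2000 variable genes, 30 principal components, 15 neighbours, Leiden resolution 1), and Scrublet scored doublets at an expected rate of 6%. The text names the 10 highest and 10 lowest genes of DT over PBS past 1.5-fold, the 15 highest and 5 lowest against other cells, the genes of the rule, the markers, and the extremes of each list; other genes with values were chosen after their values were seen. The members and the 40 gene lists were chosen with earlier results of these data known. Of 746 list entries, 42 have no column and were not analysed here, the interferon genes among them.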

Additional observations from a re-analysis of the deposited data

How the results depend on the processing

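No paired analysis was possible because each group is 1 library. Over 30 alternatives, of which those that keep gated cells of named clusters or leave out the highest cell were chosen after seeing the data, 76 results were recomputed. The share ratio of gated cells was below 1 in all 12 alternatives and moved furthest in male-called cells, to 0.341. Counts of genes past 1.5-fold, higher and lower in DT, were 69 and 48 of 3425 tested with 50 CPM added. They were 435 and 397 of 5542 at 20 UMIs per gene and 33 and 33 of 1441 at 100 UMIs. After thinning to 1000 UMIs they were 34 and 37 of 442. As differences of the deposited log2 means they were 432 and 913 of 3425, where the median of all genes was -0.19. Because the number tested changed, the counts cannot be set side by side without it. The higher count was 97 of 1846 without cells carrying UMIs of other cell types, which left 21 DT and 36 PBS cells. The lower count was 265 of 3425 with equal weight of cells and 256 of 3425 without the highest cell of each gene. It was 286 of 1637 in male-called cells and 87 of 994 in female-called cells. Against other cells, 215 genes were 2-fold higher and 208 lower with 50 CPM added, and 114 and 281 after thinning, with 15 identity genes higher. The following values had the opposite sign, and the cause was not tested. In male-called cells the log2 ratio was -1.66 for Apoe, -2.61 for Lyz2, -0.31 for Ctsd, -2.03 for Ifi205, -1.35 for Ifit2, -1.51 for Dusp1, -2.14 for Ifi211, -2.24 for Ifi204 and 0.14 for Ccl4. These rest on 5 DT cells, with 0 UMIs of Apoe and Dusp1, 1 of Lyz2 and 3 of Ctsd. The intervals for Apoe, Dusp1, Ctsd and Ccl4 include 1. For Lyz2, 1 cell held 91.2% of the male-called PBS UMIs, which its interval does not reflect. No male-called intervals were computed for Ifi205, Ifit2, Ifi211 and Ifi204, so none of these male-called values gives a direction. In female-called cells it was -0.34 for Xist, which defines those cells, 0.75 for Ccl4, from 8 UMIs in DT and 1 in PBS, and 2.39 for Igtp, from 8 UMIs in DT and 0 in PBS, which give no direction. Without cells carrying other cell types' UMIs it was -0.25 for Ctsd, -2.11 for Ifi205, -0.72 for Ifit2, -1.74 for Ifi211 and -1.32 for Ifi204, and no intervals were computed. In the leading cluster it was -2.16 for Lyz2, -1.22 for Ifi205, -0.97 for Ifi211 and -0.37 for Ifi204, and the medians were 0.29 for NF-kB and -0.040 for glycolysis. There the intervals for Ifi205, Ifi211 and Ifi204 include 1, and 1 cell held 81.6% of the PBS UMIs of Lyz2. After thinning it was -0.24 for Dusp1, 1.21 for Gm4258, 0.083 for Nfkbia and 0.073 for Igtp. With at least 2 secondary genes it was -0.053 for Ctsd, and the NF-kB median was 0.12. With equal weight of cells Dusp1 was -1.07, and on deposited log2 means the glycolysis median was -0.012. Of the other single-gene and list values 719 stayed within the set tolerance and 155 moved without reversing.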

Other observations

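The 29 measured nuclear genes of oxidative phosphorylation had a median log2 ratio of DT over PBS of -0.04, with 12 higher and 17 lower, and the 9 mitochondrial genes had a median of -0.03. All 7 measured glycolysis genes were higher in DT, with a median of 0.24 and 0 past 1.5-fold, and the median was -0.04 in the leading cluster. Of 7 p53 and DNA damage genes, 5 were lower, with a median of -0.31 (-0.36 and 0 of 4 higher in the leading cluster), and Ccng1, a cyclin induced by p53, was lowest at -1.03. Migration and adhesion genes were higher in 12 of 16, with a median of 0.12 in all gated cells and 0.18 in the leading cluster; the integrin chain Itgax was highest at 0.69 and the chemokine receptor Cxcr3 lowest at -0.55. Lysosomal genes were higher in 14 of 21, with a median of 0.09 and 0.04 in the leading cluster.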
